A study of Rattus norvegicus with 144 samples.

Results

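The transcripts described here code for the subunits of oxidative phosphorylation, the electron transport complexes I to IV and ATP synthase (complex V) of the inner mitochondrial membrane. They were taken by a rule on symbols, and this group of genes was chosen with earlier results of these data known. The rule covered every probe whose symbol began with Nduf, Uqcr or Atp5, or with Cox followed by a digit from 4 to 8. It also covered Sdha, Sdhb, Sdhc, Sdhd and Cyc1. The rule took 66 probes of 62 genes from an array table of 22075 probes. Grouped by the start of the symbol alone, complex I held 22 of these genes, complex II 4, complex III 8, complex IV 13 and complex V 15. Ndufa4 and Ndufa4l2 were thus counted in complex I by name. Values were present in at least 4 of the 6 animals of every group for 58 of the 62 genes, among 14678 features tested. Ndufa4, Ndufaf2, Ndufaf4 and Uqcrb did not pass that filter, and none of the 13 subunits coded in mitochondrial DNA was among the genes tested, so the account covers nuclear genes.

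Blood RNA came from 72 male F344/N rats, an inbred strain, aged 10 to 12 weeks. Acetaminophen, an analgesic that harms the liver in overdose, was given by oral gavage in ethyl cellulose at 0 (vehicle), 150, 1500 or 2000 mg/kg, split over 2 administrations, and rats were killed after 3, 6 or 24 h. Each of the 12 groups held 6 rats, and RNA of each rat was compared on a dye-swapped pair of arrays with a pool made of the 6 vehicle rats of its time. A value is a log2 ratio of rat to pool, and a difference is the mean of a dosed group minus the mean of the vehicle rats of the same time. A scale of log10 in the deposited table and the order Cy5 over Cy3 are likely but not stated, so the size and sign of all differences carry that limit. Ratios to a pool hold no absolute level, so the labelled tissue could not be checked against its markers. Blood is a mixture, and fewer cells of a type and less RNA per cell cannot be told apart in these ratios.

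Complex I (NADH dehydrogenase) and complex II (succinate dehydrogenase) pass electrons from fuels to ubiquinone, complex III hands them to cytochrome c, and complex IV (cytochrome c oxidase) passes them to oxygen. The proton gradient that complexes I, III and IV build drives ATP synthase. Complex II is the one complex coded wholly in the nucleus and is also an enzyme of the citrate cycle. In blood, white cells and platelets carry mitochondria, while mature red cells have lost theirs. A reactive metabolite of acetaminophen is known to damage mitochondria in the liver.

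Promoters of these genes are a textbook case of shared control, with binding sites for the nuclear respiratory factors NRF1 and GABP (the GABPA subunit binds DNA) in many of them. RefSeq promoters of build GRCr8, each 250 bases before to 50 bases after a start site, were matched by symbol for 55 of the 62 genes. The 5 printed here show the GABPA letters in 1 member of each of complexes I to IV that was lower after 2000 mg/kg, and in Uqcrh, a complex III member that was not. They were chosen after their values were seen. Capitals mark CCGGAAG or, where the match lies on the opposite strand, CTTCCGG.
Ndufs8 (complex I, chr1:210573649-210573948, minus strand): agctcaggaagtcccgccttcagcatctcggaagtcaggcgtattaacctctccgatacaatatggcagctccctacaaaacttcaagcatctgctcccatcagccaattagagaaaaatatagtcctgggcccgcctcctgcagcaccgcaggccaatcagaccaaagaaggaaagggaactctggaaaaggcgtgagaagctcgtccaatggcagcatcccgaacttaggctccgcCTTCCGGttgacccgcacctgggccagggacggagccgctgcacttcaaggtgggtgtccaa
Sdhb (complex II, chr5:158547684-158547983, plus strand): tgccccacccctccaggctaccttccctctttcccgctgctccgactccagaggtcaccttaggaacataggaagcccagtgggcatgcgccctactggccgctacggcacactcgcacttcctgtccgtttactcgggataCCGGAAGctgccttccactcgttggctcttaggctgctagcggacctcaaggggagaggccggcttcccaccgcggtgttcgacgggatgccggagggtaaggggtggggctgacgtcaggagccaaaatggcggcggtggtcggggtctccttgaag
Uqcrc2 (complex III, chr1:184598990-184599289, plus strand): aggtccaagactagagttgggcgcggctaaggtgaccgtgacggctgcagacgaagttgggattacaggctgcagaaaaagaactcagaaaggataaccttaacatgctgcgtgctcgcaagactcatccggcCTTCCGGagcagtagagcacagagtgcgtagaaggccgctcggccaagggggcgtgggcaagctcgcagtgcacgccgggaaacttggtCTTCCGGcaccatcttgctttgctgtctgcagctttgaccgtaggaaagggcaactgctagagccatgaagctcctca
Cox5b (complex IV, chr9:46417587-46417886, plus strand): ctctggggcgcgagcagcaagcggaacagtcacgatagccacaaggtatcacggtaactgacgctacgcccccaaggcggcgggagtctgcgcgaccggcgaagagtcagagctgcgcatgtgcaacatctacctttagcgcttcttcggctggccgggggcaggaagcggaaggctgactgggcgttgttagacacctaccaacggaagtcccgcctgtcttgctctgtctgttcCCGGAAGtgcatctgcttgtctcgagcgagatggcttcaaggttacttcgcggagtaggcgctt
Uqcrh (complex III, chr5:134790833-134791132, minus strand): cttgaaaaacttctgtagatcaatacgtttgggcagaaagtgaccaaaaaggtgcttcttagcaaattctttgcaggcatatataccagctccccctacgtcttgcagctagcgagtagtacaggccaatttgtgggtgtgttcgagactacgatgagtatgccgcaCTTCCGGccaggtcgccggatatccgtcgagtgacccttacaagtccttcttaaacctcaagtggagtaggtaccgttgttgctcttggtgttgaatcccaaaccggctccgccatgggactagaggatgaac
Counting from the first base of the match, the letters lay 12 bases before the start site in Ndufs8, 14 in Cox5b, 83 in Uqcrh and 108 in Sdhb. Uqcrc2 held 2 matches, the first of them 117 bases before its start.

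Searched on both strands, the letters CCGGAAG stood in 16 of the 55 member promoters (29.1%) and in 8.75% of all 33469 promoters in the table. NRF1's letters, GCGCATGCG, stood in 7 members (12.7%) against 1.52% of all promoters, and those of YY1, AAGATGGCG, in 4 (7.27%) against 1.73%. The SP1 letters GGGCGGG were found in 14 members (25.5%) against 22.7%, and TATAAA in 5 (9.09%) against 14.2%. No motif contains another. Among members lower at 3 or 6 h after 2000 mg/kg, 9 of the 20 with a promoter held the GABPA letters, and among tested members with no call 7 of 32 did. NRF1's letters stood in 3 of the same 20 and 3 of the same 32. These are counts of letters and not of bound sites. The Gabpa transcript differed from vehicle by 0.02 at 3 h and 0.05 at 6 h after 2000 mg/kg and was not called. The Yy1 transcript was at -0.22 at 3 h, with an adjusted p of 0.0319 in limma, and was not called at 6 h.

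After 2000 mg/kg, 20 of 58 members were lower than in vehicle rats at 3 h and none was higher, at an adjusted p under 0.05 in limma's fit across all features. Without rat 2360 of the 2000 mg/kg group that count was 13. At 6 h 20 were lower and none higher, and at 24 h no member passed in either direction (at an unadjusted p under 0.05, 6 were lower and none higher). In a fit of fewer rats, with 5 treated and 6 vehicle rats at 24 h, 0 were lower and 1 higher at that p. The treated rat left out there was 5402, the lowest over complex II at 24 h (-0.93). Of all features 8.32% were lower at 3 h and 8.26% at 6 h, and 9.23%, 9.22% and 0.818% passed in either direction at 3, 6 and 24 h. The median difference of the 58 members was -0.18 at 3 h, -0.24 at 6 h and -0.07 at 24 h, beside 0.03, 0.02 and 0.00 for all features. At 3 h 13 members had every treated rat below every vehicle rat, at 6 h 20 did and at 24 h none. Such a gap was found in 5.97%, 6.96% and 0.327% of all features at these times. Called members were spread unevenly over the complexes: at 3 h they were 8 of 19 in complex I, 3 of 4 in complex II, 2 of 7 in complex III, 1 of 13 in complex IV and 6 of 15 in complex V. At 6 h the counts were 7, 2, 2, 1 and 8 in the same order.

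**Figure D1:**
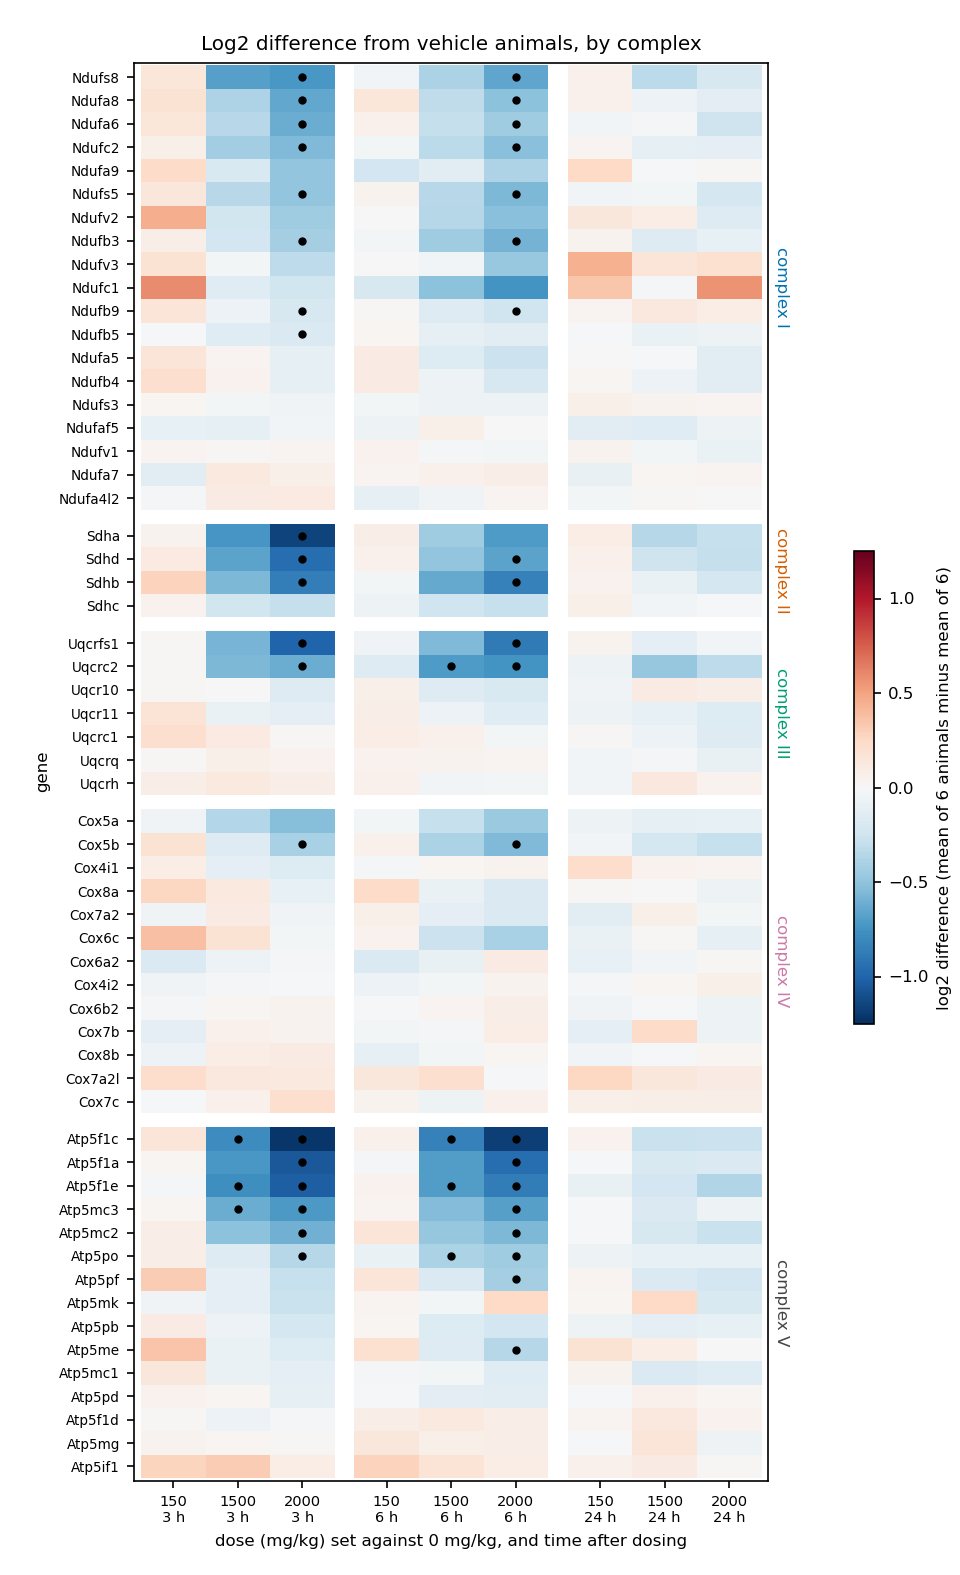
Log2 difference from the vehicle rats of the same time for the 58 tested members (rows, grouped by complex) at each dose and time (columns, 6 rats a group); blue is lower, red is higher, and a dot marks an adjusted p under 0.05. The 1500 and 2000 mg/kg columns at 3 and 6 h hold every dot, and the deepest blue is Atp5f1c at -1.22 and -1.18.

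ATP synthase held the member with the largest difference at both early times. Its F1 head, which makes ATP, is built of alpha (Atp5f1a), beta, gamma (Atp5f1c), delta (Atp5f1d) and epsilon (Atp5f1e) subunits, of which gamma is the shaft that turns inside the head. The log2 ratio of Atp5f1c ran from -0.23 through a median of -0.12 to 0.32 in the 3 h vehicle rats and from -1.65 through -1.31 to -0.86 at 2000 mg/kg. At 6 h the vehicle rats ran from -0.23 through -0.05 to 0.07 and the 2000 mg/kg rats from -1.60 through -1.32 to -0.64. All treated rats lay below all vehicle rats at both times. The difference was -1.22 ± 0.22 (SE, n = 6 against 6) at 3 h, a 2.33-fold fall with an adjusted p of 8.69e-05 in limma, and -1.18 ± 0.22 at 6 h with an adjusted p of 0.000709. Both probes of the gene fell, by 1.20 and 1.24 at 3 h on the log2 scale.

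Atp5f1e had the smallest p of complex V at 3 h, with vehicle rats between -0.18 and 0.34 (median 0.16) at 3 h and 2000 mg/kg rats between -1.37 and -0.55 (median -0.85). Its difference was -1.03 ± 0.17 at 3 h (limma adjusted p 3.01e-05) and -0.87 ± 0.17 at 6 h. Atp5f1a fell by 1.06 and 0.95 on the log2 scale at the same times. The delta subunit was not called: Atp5f1d differed by -0.02 ± 0.06 at 3 h, with a 95% confidence interval of -0.14 to 0.11, and by 0.08 ± 0.06 at 6 h. Its pooled SD within groups was 0.11, where the median over members was 0.23.

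The c ring, which turns with the shaft as protons cross the membrane, is made of one protein coded by 3 genes that differ in their import sequences. Atp5mc3 fell by 0.72 at 3 h and 0.69 at 6 h, and Atp5mc2 by 0.60 and 0.56. Atp5mc1 was at -0.12 and -0.15 and did not pass. In the peripheral stalk, which holds the head still, Atp5po fell by 0.36 at 3 h and 0.44 at 6 h, and Atp5pf by 0.42 at 6 h (-0.29 at 3 h, not called). Atp5pb (-0.22 and -0.23) and Atp5pd (-0.11 and -0.14) did not pass at either time. Among the small membrane subunits, Atp5me fell by 0.36 at 6 h. Atp5mg was at 0.01 and 0.08, and Atp5mk at -0.28 and 0.25, neither called.

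In complex II 3 of 4 genes fell at 3 h and 2 of 4 at 6 h. Sdha, the flavoprotein that oxidises succinate, ran from -0.52 through -0.14 to 0.36 in the 3 h vehicle rats and from -1.66 through -1.26 to -1.01 at 2000 mg/kg, with no overlap. Its difference of -1.16 ± 0.25 had an adjusted p of 0.00101 in limma. At 6 h it was at -0.71 ± 0.25, with an adjusted p of 0.0603, and did not pass. The iron-sulphur subunit Sdhb ran from -0.39 to 0.00 (median -0.16) in vehicle rats and from -1.23 to -0.82 (median -1.06) at 2000 mg/kg at 3 h. At 6 h vehicle rats lay between -0.24 and 0.04 (median -0.06) and 2000 mg/kg rats between -1.17 and -0.58 (median -0.98). Both times again showed no overlap, with differences of -0.86 ± 0.17 and -0.84 ± 0.17 (limma adjusted p 0.000333 and 0.00131). Of the pair of membrane anchors, Sdhd fell by 0.95 at 3 h and 0.67 at 6 h. Sdhc was at -0.30 ± 0.14 and -0.29 ± 0.14, with adjusted p of 0.178 and 0.176 in limma.

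**Figure D2:**
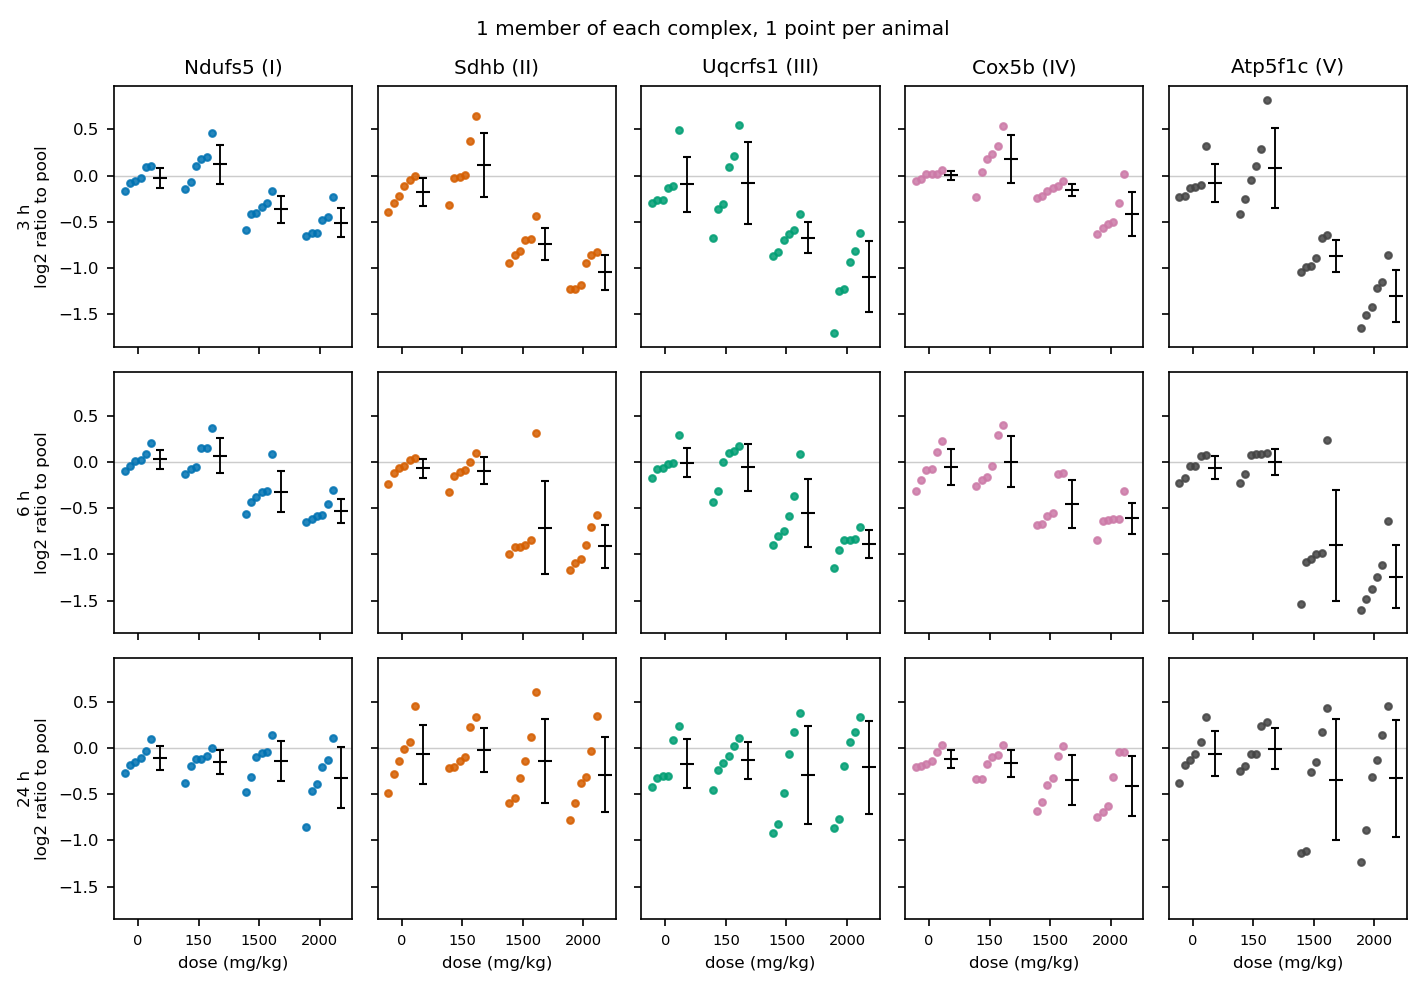
Log2 ratio to the pool in each rat (points, sorted within a group) for the member of each complex with the smallest p at 3 or 6 h, by dose and time; horizontal bars are means and vertical bars SD of 6 rats. Sdhb and Atp5f1c sit below all vehicle rats at 2000 mg/kg at 3 and 6 h, 1 rat given 1500 mg/kg lies high at 6 h, and the 24 h groups given 1500 or 2000 mg/kg spread widely.

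In complex III 2 genes fell and 5 were not called. Uqcrfs1, the Rieske iron-sulphur protein that carries electrons towards cytochrome c, ran from -0.29 through -0.19 to 0.49 in vehicle rats and from -1.70 through -1.08 to -0.62 at 2000 mg/kg at 3 h. At 6 h vehicle rats ran from -0.17 through -0.04 to 0.29 and treated rats from -1.15 through -0.85 to -0.70. The groups did not overlap. The mean went from -0.09 in vehicle rats to -1.09 at 3 h, a 2-fold fall (SE of the log2 difference 0.19, limma adjusted p 0.00021), and the difference at 6 h was -0.88 ± 0.19 (limma adjusted p 0.00194). Uqcrc2, a large matrix-facing core subunit, fell by 0.62 at 3 h and 0.75 at 6 h. Its 2 probes disagreed in size at 3 h, at -0.25 (adjusted p 0.558) and -0.99 (adjusted p 0.00104), and were alike at 6 h, at -0.73 and -0.77. Its partner Uqcrc1, with a pooled SD within groups of 0.12, was at 0.01 and -0.03, with a 95% interval of -0.14 to 0.15 at 3 h. The small subunits Uqcr10, Uqcr11, Uqcrh and Uqcrq lay between -0.16 and 0.08 at 3 h and between -0.20 and 0.03 at 6 h.

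In complex I accessory subunits, which surround the catalytic core, were most of the 17 subunits tested and also most of the called ones. Ndufs5, an accessory subunit facing the intermembrane space, had the smallest p: vehicle rats ran from -0.17 through -0.04 to 0.11 and 2000 mg/kg rats from -0.65 through -0.55 to -0.23 at 3 h. At 6 h they ran from -0.10 through 0.01 to 0.20 and from -0.65 through -0.59 to -0.30. No rat overlapped at either time, and the differences were -0.49 ± 0.11 and -0.56 ± 0.11 (limma adjusted p 0.000956 and 0.000749). The accessory subunits Ndufa8 (-0.65 and -0.51), Ndufa6 (-0.62 and -0.44), Ndufc2 (-0.55 and -0.52), Ndufb3 (-0.42 and -0.59) and Ndufb9 (-0.21 and -0.25) were lower at both times, and Ndufb5 at 3 h alone passed, at -0.19 beside -0.14 at 6 h. Of Ndufb9 the mean of 2 probes passed at 3 h, while each probe taken singly had an adjusted p of 0.0831 or 0.0706.

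Of the 4 catalytic core subunits tested, Ndufs8, which carries iron-sulphur clusters on the path to ubiquinone, fell by 0.73 at 3 h and 0.66 at 6 h. Ndufv2 was at -0.44 and -0.52 (limma adjusted p 0.139 and 0.0639). Ndufv1, the NADH-binding subunit, was at 0.03 ± 0.03 and -0.03 ± 0.03, and Ndufs3 at -0.05 ± 0.05 and -0.06 ± 0.05. Both varied little between rats, with pooled SDs within groups of 0.05 and 0.09. Ndufc1 was the noisiest member, with a pooled SD within groups of 0.58, and its -0.75 ± 0.33 at 6 h was not called.

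Complex IV was the complex with the fewest calls. Cox5b, a nuclear subunit on the matrix side, ran from -0.06 through 0.02 to 0.06 in vehicle rats and from -0.63 through -0.51 to 0.02 at 2000 mg/kg at 3 h, so 1 treated rat lay inside the vehicle range. At 6 h the ranges were -0.31 to 0.23 (median -0.09) and -0.84 to -0.31 (median -0.63). Its differences were -0.41 ± 0.12 and -0.55 ± 0.12 (limma adjusted p 0.0194 and 0.00219). Cox5a, at -0.53 ± 0.18 and -0.46 ± 0.18, missed the threshold with adjusted p of 0.051 and 0.105, and Cox6c, at -0.03 and -0.41, had 0.0603 at 6 h. The other 5 ubiquitous subunits (Cox4i1, Cox7a2, Cox7b, Cox7c and Cox8a) lay between -0.17 and 0.21 at 3 h and between -0.19 and 0.09 at 6 h.

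The symbol rule also took 5 isoforms known from muscle, lung, testis or low oxygen (Cox4i2, Cox6a2, Cox6b2, Cox8b and Ndufa4l2), which ran from -0.02 to 0.11 at 3 h and from 0.02 to 0.10 at 6 h, none called. It took 3 tested genes that are no subunits. Ndufaf5, an assembly factor, was at -0.04 and 0.00, Atp5if1, the inhibitor of ATP synthase, at 0.09 and 0.09, and Cox7a2l, which joins complexes III and IV, at 0.12 and -0.01. All called members were therefore among the 50 tested genes that code for ubiquitous subunits.

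Averaged over its members, complex II showed the largest difference at 2000 mg/kg and complex IV the smallest. The mean differences at 3 h were -0.82 for complex II, -0.41 for V, -0.29 for I, -0.25 for III and -0.06 for IV. At 6 h they were -0.63, -0.37, -0.33, -0.29 and -0.11 in that order. Per rat, the mean log2 ratio of complex II lay between -1.19 and -0.73 at 3 h and between -0.90 and -0.45 at 6 h, and that of complex IV between -0.16 and 0.11 and between -0.17 and 0.00. Complex II was the lowest of the 5 complexes and complex IV the highest in 6 of 6 rats at 3 h and in 6 of 6 at 6 h. In vehicle rats complex II was lowest in 3 of 6 at 3 h and 4 of 6 at 6 h, and complex IV highest in 5 and 3. Complex III lay above complex V in 6 of 6 rats given 2000 mg/kg at 3 h and 6 of 6 at 6 h, against 0 and 3 of 6 vehicle rats. Complex I lay above complex V in 5 and 4 of 6, against 1 and 2 of 6 vehicle rats. Complex III lay above complex I in 5 and 5, close to the 4 and 4 of vehicle rats. Complex IV holds 4 tissue isoforms and Cox7a2l among its 13 genes. Over its other 8 genes, the ubiquitous subunits, its mean difference was -0.13 at 3 h and -0.20 at 6 h, and over the subunits alone it was the highest complex in 6 of 6 rats at 3 h and 4 of 6 at 6 h, with complex II still lowest in 6 of 6 at both times. These means have no test, since members are not replicates. The pooled SD within groups had a median of 0.34 over complex II members, 0.26 over complex IV, 0.23 over complexes I and V and 0.16 over complex III, beside 0.20 for all features. The range within complexes III and V, with Uqcrfs1 lowest and Uqcrh (0.08) highest at 3 h, and Atp5f1c (-1.22) lowest and Atp5if1 (0.09) highest, was wider than the range between complex means.

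**Figure D3:**
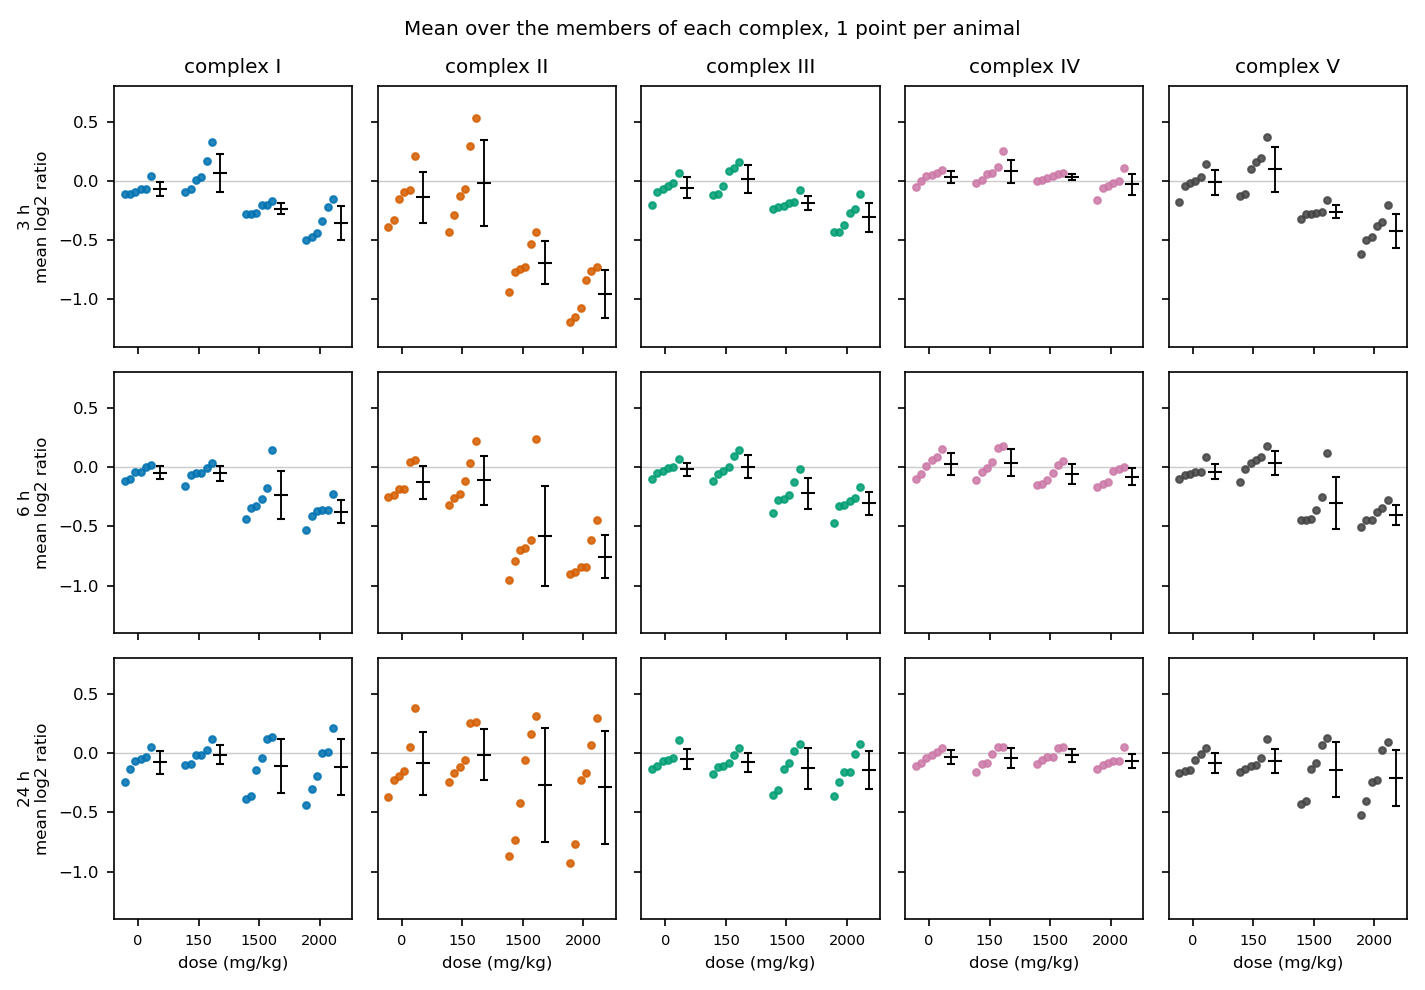
Mean log2 ratio over the members of each complex in each rat (points, sorted within a group) by dose and time; horizontal bars are means and vertical bars SD of 6 rats. At 3 and 6 h the 2000 mg/kg rats of complex II lie lowest, between -1.19 and -0.45, and those of complex IV stay between -0.17 and 0.11.

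The same members were lower at both early times. Of 20 called at each, 18 were shared, 90% of either list, and the rats and the vehicle pools differ between the times. Of all features, 683 were called at both times, 50.4% of either list. Sdha and Ndufb5 passed at 3 h only, and Atp5pf and Atp5me at 6 h only. A difference between 3 and 6 h was called for none of the 58 members (background 0.00681%), Sdha included, and 1 passed an unadjusted p under 0.05 in limma. Across members the 3 h and 6 h differences had a correlation of 0.90 (n = 58), and across all features 0.74. This is a description over genes, which share arrays and rats within a time.

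At 1500 mg/kg the differences were smaller and calls few. At 3 h 3 members were lower, Atp5f1c by 0.79, Atp5f1e by 0.78 and Atp5mc3 by 0.62, where 1.24% of all features were lower and 1.29% passed in either direction. At 6 h 4 were lower, Atp5f1c by 0.84, Uqcrc2 by 0.71, Atp5f1e by 0.70 and Atp5po by 0.40, where 0.654% of all features were lower and 0.749% passed. No member passed at 24 h (background 1.21%), where 1 was lower and 1 higher at an unadjusted p under 0.05. Adjusted p in limma lay between 0.0148 and 0.0493 for these calls, and the counts changed with single rats: leaving out 1 rat gave 0 to 4 at 3 h and 0 to 16 at 6 h. Without rats 6370 or 1286 the 3 h count was 0, and without any rat but 0621 the 6 h count was 0 or 1. The 16 came without rat 0621 of the 6 h 1500 mg/kg group, whose mean log2 ratio was 0.24 over complex II and 0.12 over complex V, where the other 5 rats lay between -0.95 and -0.62 and between -0.45 and -0.25. In that rat the mean over T cell markers was 0.16 and over B cell markers 0.29. What these markers add to the count was not tested. The share of all features called without rat 0621 is not given here. Complex means at 1500 mg/kg were -0.55 and -0.46 for complex II at 3 and 6 h, and 0.00 and -0.09 for complex IV.

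**Figure D4:**
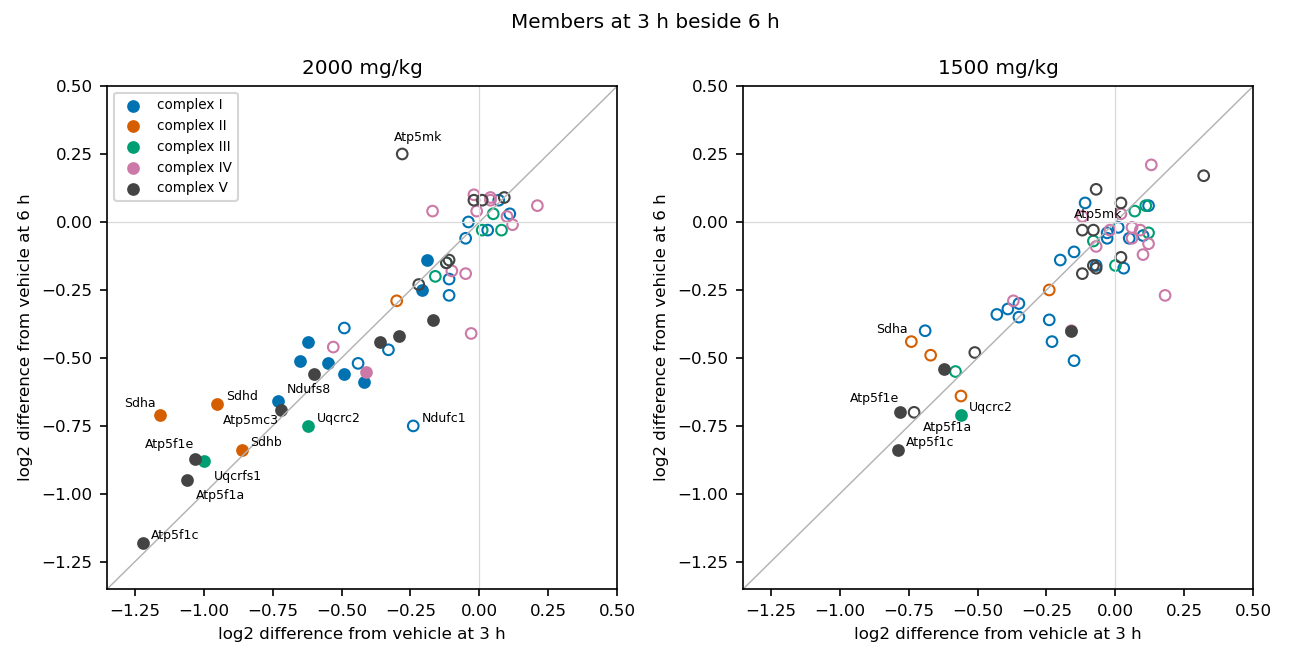
Each point is 1 of the 58 members, with its log2 difference from vehicle at 3 h (x) and 6 h (y), at 2000 mg/kg (left) and 1500 mg/kg (right); filled points passed at 1 or both times and colours give the complex. Points follow the diagonal from Atp5f1c at -1.22 and -1.18 up to a cluster near 0, with Atp5mk (-0.28 and 0.25) off it.

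The 2 higher doses were also set against each other: at 3, 6 and 24 h no member passed, nor did any feature of the whole table (0% at each time). The medians of the members' differences between these doses were -0.13, -0.09 and -0.04, and at an unadjusted p under 0.05 in limma 2, 1 and 2 members were lower and 1 was higher, at 6 h. At 150 mg/kg no member and no feature passed at any time (0%), and at an unadjusted p under 0.05 8 members were higher at 3 h and none in either direction at 6 or 24 h. Their differences from vehicle ran from -0.18 to 0.59 at 3 h with a median of 0.08. Set against 150 mg/kg, 1500 mg/kg had 17 members lower at 3 h, where 2.99% of all features were lower and 3.28% passed in either direction. These were 7 of complex I, Sdhb (-0.85 ± 0.17) and Sdhd of complex II, Uqcr11 of complex III and 7 of complex V, led by Atp5f1c at -0.95 ± 0.22. At 6 and 24 h none passed (backgrounds 0.0136% and 1.04%), while 24 and 2 were lower at an unadjusted p under 0.05 in limma. These backgrounds are shares at an adjusted p and are no measure for the unadjusted counts. The 1500 mg/kg group is shared with the comparison against vehicle.

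By 24 h the means lay closer to vehicle. The SD between rats given 2000 mg/kg was 0.48 over complex II at 24 h, against 0.21 at 3 h and 0.18 at 6 h, and 0.24 over complexes I and V, while over complex IV it was 0.09, 0.07 and 0.06 at 3, 6 and 24 h. At 1500 mg/kg the complex II SD was 0.42 at 6 h and 0.48 at 24 h. Mean log2 ratios over complex II in the 6 rats given 2000 mg/kg were -0.93, -0.77, -0.23, -0.17, 0.07 and 0.30, and in the 6 given 1500 mg/kg -0.87, -0.73, -0.42, -0.06, 0.16 and 0.31, beside -0.37 to 0.38 in vehicle rats. In each group 2 rats lay within the range of the 3 h rats given the same dose. The others lay within the vehicle range, except the 1500 mg/kg rat at -0.42. That rat lay between the lowest vehicle rat (-0.37) and the highest 3 h rat given 1500 mg/kg (-0.43). Over complex V the same 2 rats given 2000 mg/kg were at -0.52 and -0.40 and the other 4 between -0.24 and 0.09. Those 2 rats had mean log2 ratios of -0.99 and -0.82 over T cell markers and 1.05 and 1.31 over neutrophil markers. The other 4 lay between -0.34 and 0.30 and between 0.24 and 0.59. At 1500 mg/kg the 2 rats lowest over complex II were at -1.19 and -1.02 over T cell markers and 1.45 and 1.62 over neutrophil markers. Rat 6173 of that group was at 1.03 over neutrophil markers with a complex II mean of -0.06. Any link between markers and complex II was not tested. The member of each complex with the smallest p at 24 h was Cox5b (-0.29 ± 0.12), Atp5f1e (-0.38 ± 0.17), Sdhd (-0.30 ± 0.21), Uqcrc1 (-0.16 ± 0.07) or Ndufv1 (-0.08 ± 0.03), and their adjusted p in limma lay between 0.239 and 0.701. Ndufv1 ran from -0.07 through 0.01 to 0.09 in vehicle rats and from -0.14 through -0.07 to -0.03 at 2000 mg/kg, and Uqcrc1 from -0.26 through 0.07 to 0.24 and from -0.31 through -0.14 to 0.09. Cox5b ran from -0.21 through -0.16 to 0.03 and from -0.75 through -0.47 to -0.04, and Sdhd from -0.50 through -0.27 to 0.32 and from -1.28 through -0.28 to 0.28. Atp5f1e ran from -0.17 through -0.03 to 0.13 and from -1.06 through -0.36 to 0.19. All 5 overlapped between the groups. The change of the 2000 mg/kg difference from 3 to 24 h was called for 1 member, Uqcrfs1, at 0.96 ± 0.27 (adjusted p 0.033, background 2.73%). From 6 to 24 h it was called for Ndufb9 alone, at 0.34 ± 0.10 (adjusted p 0.0392, background 3.67%). Both calls hung on single rats: leaving out each of the 24 rats in turn kept the first call in 13 fits and lost it in 11, and kept the second in 12 and lost it in 12, with changes of 0.84 to 1.09 and of 0.30 to 0.37. At 1500 mg/kg no such change was called between 3 and 6, 3 and 24 or 6 and 24 h (backgrounds 0%, 1.51% and 0.225%), and 2, 5 and 4 members passed an unadjusted p under 0.05 in limma.

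The deposited table held no values of 500 features on 91 of the 144 arrays, and such arrays were spread unevenly over the groups. At 3 h they made up 6 of 12 arrays of vehicle rats and 4 of 12 of 2000 mg/kg rats, and at 6 h 10 and 10. Rats given 150 mg/kg had 1 of 12 at 3 h and 6 of 12 at 6 h, and those given 1500 mg/kg 3 and 4. Comparisons with these groups are thus less balanced. With the share of a rat's arrays that lack these features as a covariate, the complex II mean was -0.84 at 3 h and -0.63 at 6 h. Within rats with the features present on both arrays at 3 h, 4 treated and 2 vehicle, no feature passed, 12 members were lower and none higher at an unadjusted p under 0.05 in limma, and the means were -0.63 for complex II, -0.28 for V and -0.03 for IV. Within the 2 treated and 2 vehicle rats that lack them on both arrays they were -1.05, -0.48 and -0.09, with 5 members called. At 6 h rats that lack them on both arrays gave 23 called members and a complex II mean of -0.70. The shares of all features called in the fits with 5 and 23 called members are not given here. These 2 counts are thus no result about the members. Every complex mean at 3 and 6 h stayed below 0 in each of these fits.

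Some other mitochondrial genes were also lower after 2000 mg/kg. Of all features 8.32% were lower at 3 h and 8.26% at 6 h, and 9.23% and 9.22% passed in either direction. Each list count below is to be read beside these shares. Of 41 tested proteins of the mitochondrial ribosome, 11 were lower at 3 h and 9 at 6 h after 2000 mg/kg and none higher, with medians of -0.14 and -0.22. Mrps23 fell by 0.82 and 0.77. Of 26 assembly factors and electron carriers 4 were lower at each time (medians -0.04 and -0.16), among them Cox17, the copper chaperone of complex IV, by 0.92 and 0.84, and Coq9, of ubiquinone synthesis, by 0.50 and 0.70. Of 26 carriers, porins and import genes 5 and 7 were lower (medians -0.11 and -0.12), including Slc25a5, an ADP/ATP carrier, by 0.91 at 3 h and the import receptor Tomm20 by 0.82 and 0.77. Of 14 citrate cycle and pyruvate dehydrogenase genes, with medians of -0.05 and -0.21, 2 were lower at each time, Suclg1 by 1.29 and 1.33 and Mdh2 by 0.78 and 0.69, and 1 was higher, Dlat by 0.32 at 3 h and Ogdh by 0.35 at 6 h. Of 10 biogenesis regulators, with medians of 0.00 at both times, 3 and 2 were lower, including Tfam, which packages and transcribes mitochondrial DNA, by 1.14 and 0.99.

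**Figure D5:**
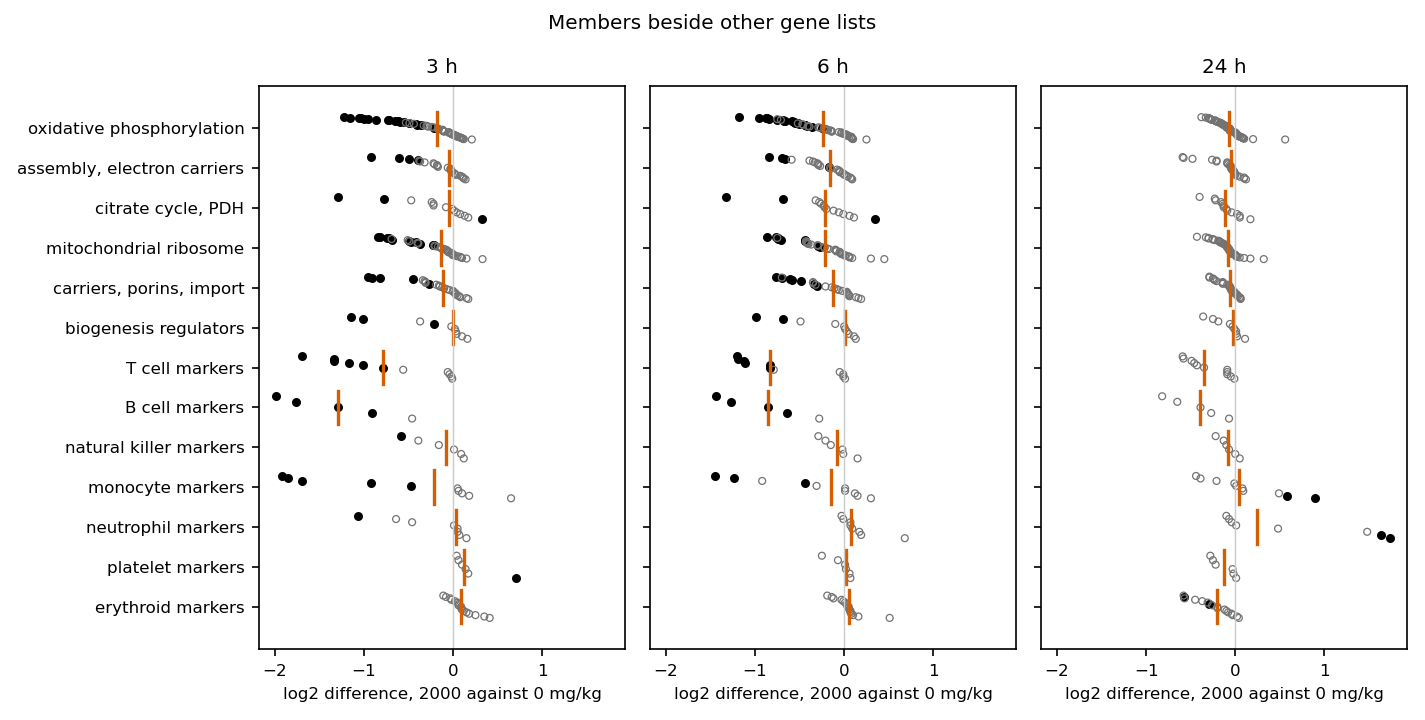
Each point is 1 gene's log2 difference between 2000 and 0 mg/kg at 3, 6 and 24 h for the members and 12 other lists; filled points have an adjusted p under 0.05 and orange bars are list medians. The medians of the T and B cell markers lie below that of the members at 3 and 6 h, some T cell markers sit near 0, and the erythroid medians are 0.09 and 0.05.

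Some markers of T cells, B cells and monocytes were also lower after 2000 mg/kg. Of all features 8.32% were lower at 3 h and 8.26% at 6 h. In either direction 9.23%, 9.22% and 0.818% passed at 3, 6 and 24 h. Of 11 T cell markers tested 6 were lower at 3 h and 6 at 6 h, with medians of -0.79 and -0.83. Cd5 was at -1.69 at 3 h and Zap70 at -1.11 at 6 h, while Cd3d, Cd3e, Cd8a and Cd8b lay between -0.06 and 0.01 at both times. The mean over the T cell list ran from -0.25 to 0.04 in vehicle rats and from -1.06 to -0.49 at 2000 mg/kg at 3 h, and from -0.17 to 0.08 and from -0.86 to -0.40 at 6 h. Of 5 B cell markers 4 were lower at each time (medians -1.29 and -0.86), with list means of -1.72 to -1.06 at 3 h against -0.43 to 0.36 in vehicle rats. Of 10 monocyte markers 5 and 3 were lower (medians -0.21 and -0.15), among them Fn1 at -1.92 at 3 h, with list means of -0.83 to -0.45 against -0.33 to 0.06. Of 6 natural killer markers 1 and 0 were lower, and of 8 neutrophil markers 1 and 0. At 24 h 2 neutrophil markers (S100a9 by 1.74 and Mmp8 by 1.64) and 2 monocyte markers were higher. Of 17 erythroid markers none was called at 3 or 6 h, and 2 were lower at 24 h. Of 6 platelet markers 1, Selp, was higher at 3 h. The part of these shifts in the subunits' differences was not tested.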

How the data were processed

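The authors hybridised RNA of 72 rats on 144 2-colour arrays, 2 per rat with the dyes exchanged, per the labels. The deposited log10 values were read as Cy5 over Cy3 ratios, normalised by the authors in a way not given in the sources used here; array medians lay between -0.00754 and 0.00873. Other deposited columns give the dose and time of each animal number, and 19 of these numbers had lost end zeros and were matched on the remaining digits, with all 72 times as labelled. Intensities and background flags were not analysed here, so the number of rats and arrays sets the precision. For members with small differences and little spread, a steady transcript and a probe with little signal cannot be told apart.

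Exact zeros (10.9% of values, 3.49% for member probes) were set missing, ratios were turned to log2 of rat over pool, and a rat's value is the mean of both arrays. Probes of 1 symbol were averaged. The 500 features absent on 91 arrays were dropped, which left 21575. A feature needed values in 4 of 6 rats in each group. No value was imputed; 0.0239% of member values were missing. Within a time, arrays of the same dye order correlated with a median of 0.367 (Cy5) and 0.369 (Cy3), lowest -0.27.

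limma 3.58.1 in R 4.3.3 fitted 12 group means over all rats (prior degrees of freedom 2.37), two-sided, with Benjamini-Hochberg adjustment over 14678 features and a threshold of 0.05; statmod 1.5.0 served the random block and the fit was tested on simulated data. Promoters and figures used Python 3.11.15, pandas 2.3.3 and matplotlib 3.10.9. Members called in any comparison with vehicle were named, with the member of smallest p per complex and time, isoforms and non-subunits, and up to 4 called genes per other list. Members and lists were chosen with earlier results of these data known. Every background is a share at an adjusted p. The share of all features at an unadjusted p is not given here, so counts at that p are descriptions and no result about the members.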

Additional observations from a re-analysis of the deposited data

Results flagged for a closer look

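Complex means in the 12 groups, and the member of each complex with the smallest p in the vehicle and 2000 mg/kg groups, gave 90 sets of 6 values, which share rats. In 9 of these sets 1 rat lay far from the other 5, where chance gives about 1 in 20. Among complex means, rat 6370 of the 3 h vehicle group lay at 0.04 over complex I, with the next rat at -0.07. Rat 0621 of the 6 h 1500 mg/kg group lay at 0.24 over complex II (next -0.62) and at 0.12 over complex V (next -0.25). Rat 5545 of the 3 h 1500 mg/kg group lay at -0.08 over complex III (next -0.18) and at -0.16 over complex V (next -0.26). Over complex V the 6 h vehicle rat 4101 lay at 0.08 (next -0.04), and over complex IV the 24 h 2000 mg/kg rat 9999 lay at 0.05 (next -0.07). For Uqcrfs1, vehicle rat 6370 lay at 0.49 at 3 h (next -0.11) and vehicle rat 6749 at 0.29 at 6 h (next -0.01).

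The 2000 mg/kg difference changed between times by the test of the change itself in 2 members: Uqcrfs1 rose by 0.96 on the log2 scale from 3 to 24 h and Ndufb9 by 0.34 from 6 to 24 h. Without the far 3 h vehicle rat 6370 the change of Uqcrfs1 was 0.84, with an adjusted p of 0.0999 in limma. Leaving out each of 24 rats in turn, a check chosen after seeing the data, lost the call of Uqcrfs1 in 11 fits and that of Ndufb9 in 12.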

How the results depend on the processing

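Under the alternatives 120 of 145 counts of called members stayed within 1.5 times their main value, and 211 of 215 complex means moved by less than 1 SD. The 145 counts include comparisons with a main count of 0, namely the lowest dose at every time and all doses at 24 h. A count that stayed at 0 was scored as unchanged. The pooled share therefore does not measure how stable the comparisons with calls were. Counts under the alternatives stand without the share of all features called in the same fit. They show how the calls vary and are no result about the members. The 20 called members at 2000 mg/kg became 13 at 3 h and 10 at 6 h when a 1.5-fold change was also asked, 12 at 6 h with arrays centred and scaled, and at 3 h 0 within rats whose arrays hold the 500 features absent elsewhere and 5 within rats whose arrays lack them, fits that hold fewer rats and were chosen after seeing the data. Leaving out 1 rat gave 13 (without 2360) to 22 at 3 h and 14 to 22 at 6 h. The 1500 mg/kg counts (3 and 4) were unstable, and the cause was not tested. At 3 h they became 1 with exact zeros kept, Cy5 arrays only, 1 of 2 arrays enough, values in 2 of 6 rats, or trended variance, 0 within rats with the 500 features, 5 with the share of arrays lacking them as a covariate, 15 with only 2 groups fitted or single arrays as a random block, 16 with array weights, and 0 to 4 without 1 rat. At 6 h they became 0 with zeros kept, scaled arrays, Cy5 or Cy3 arrays only or 2 groups fitted, 1 with 1 of 2 arrays enough, 8 within rats without the 500 features, 13 with the random block, 18 with array weights, and 0 to 16 without 1 rat. At 24 h 1 member was higher with zeros kept. Of the complex means at 2000 mg/kg, complex III at 6 h was -0.20 with Cy3 arrays only, complex IV at 6 h -0.20 over subunits only, complex V at 3 h -0.28 within rats with the 500 features and complex II at 3 h -1.05 within rats without them.
All complex means at 3 and 6 h stayed below 0, with complex II between -1.05 and -0.53. These alternatives were run for the comparisons with vehicle only, and of single probes the symbols with a called probe were counted. No paired analysis was possible because the replicate numbers are animal numbers that no other group shares.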
